A study of Mus musculus with 2 samples.

Results

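The NF-kB genes examined here were the 5 subunit genes Nfkb1, Nfkb2, Rel, Rela and Relb, the 3 inhibitor genes Nfkbia, Nfkbib and Nfkbie, and the regulators Tnfaip3 and Bcl3. They were chosen by name, and all 10 of 10 were found among the 51840 genes of the deposited table. The study sequenced RNA of CH12F3, an IgM-positive lymphoma line of mouse B cells that can switch to IgA in culture, and of a CH12F3 derivative with the label Lig4-/-. DNA ligase IV, the product of Lig4, seals broken DNA ends in nonhomologous end joining. Both lines were grown without any stated stimulus in RPMI with 10% serum, each gave 1 library, and the labels do not say how the Lig4-/- cells were made or whether they are 1 clone. With no replicates there is no spread, no test and no error for any value below, and differences describe these 2 libraries.

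NF-kB proteins are dimers of Rel-homology subunits that bind kappaB sites in DNA. In resting cells IkB proteins hold them in the cytoplasm, and the IKK kinase complex releases them by marking IkB for degradation. In B cells the canonical branch, with Nfkb1, Rela and Rel products, answers receptors that include the antigen receptor and Toll-like receptors. The noncanonical branch, with Nfkb2 and Relb products, answers receptors that include CD40 and BAFF receptors. A receptor can act on both branches. Several genes of the system, among them Nfkbia, Tnfaip3, Nfkb2 and Rel, are themselves known NF-kB targets, which closes negative and positive feedback loops.

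Values were FPKM, fragment numbers scaled to transcript length and library size, as the authors deposited them. The library labelled Lig4-/- had 0.64 FPKM of Lig4 itself, against 0.13 FPKM for CH12F3. Its log2 ratio, defined below, was 0.54 as deposited and -0.65 after the adjustment for GC content given below. Both levels lay under the expression threshold. The gene thus gives no check of the label, and all directions rest on that label. Each of the 8 B cell markers was expressed in both libraries, and 6 of them were higher in the library labelled Lig4-/-. Their sum was 1507 FPKM for CH12F3 and 1043 FPKM for the library labelled Lig4-/-, a direction set by Cd79b, at 1187 and 481.1 FPKM. Without Cd79b the sums were 319.5 and 562.1 FPKM. The 6 T cell markers summed to 8.99 and 4.6 FPKM, most of it Cd4 at 7.42 and 2.64, and Cd2 was at 0 in both. The 6 myeloid markers summed to 5.25 and 9.79 FPKM, with Cd14 at 0 in both, and the 5 stromal or epithelial markers to 1.42 and 1.03 FPKM, with Epcam at 0 in both. A gene was called expressed at a mean of at least 1 FPKM over both libraries, which 11437 genes and all 10 members reached. The log2 ratio is log2 of FPKM + 1 in the library labelled Lig4-/- over FPKM + 1 in CH12F3, and its median over expressed genes was 0.17. In bulk RNA, fewer expressing cells and less RNA per cell cannot be told apart.

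Promoter windows were available from RefSeq (GRCm38.p6) for 8 of the 10 members, all but Nfkb1 and Relb, each from 250 bases before to 50 bases after an annotated start. They were searched on both strands for the 10-base kappaB consensus, which is GGG, a purine, any pair of bases, a pair of pyrimidines and CC. At least 1 match lay in a window of 6 of these 8 members (Bcl3, Nfkb2, Nfkbia, Nfkbie, Rel and Tnfaip3), whereas 9.55% of the 27025 genes in the table had one. A match is a string of letters and not a measured binding site. Windows that hold a match are printed for Tnfaip3, Rel, Nfkbia, Nfkbie and Nfkb2, 5′ to 3′ on the gene's strand, with the bases covered by matches in capitals. The windows without a match, that of Bcl3 and the other windows of Nfkb2 are not printed. Matches on opposite strands overlap where the site is a near palindrome, as in Rel, so 1 run of capitals can hold more than 1 match.
Tnfaip3, chr10:19015361-19015660, minus strand: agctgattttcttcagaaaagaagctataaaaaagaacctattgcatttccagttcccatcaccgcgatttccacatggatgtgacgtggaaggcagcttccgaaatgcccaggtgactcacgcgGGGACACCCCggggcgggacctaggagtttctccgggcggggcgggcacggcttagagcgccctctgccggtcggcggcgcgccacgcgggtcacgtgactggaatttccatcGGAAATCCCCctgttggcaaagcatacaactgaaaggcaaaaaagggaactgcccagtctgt
Rel, chr11:23770920-23771219, minus strand: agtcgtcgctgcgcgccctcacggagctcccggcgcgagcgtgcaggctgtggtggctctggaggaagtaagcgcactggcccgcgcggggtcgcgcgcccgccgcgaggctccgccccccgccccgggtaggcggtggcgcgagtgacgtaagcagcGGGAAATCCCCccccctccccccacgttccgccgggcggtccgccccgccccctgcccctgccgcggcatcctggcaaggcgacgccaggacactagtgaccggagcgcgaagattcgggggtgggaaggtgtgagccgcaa
Nfkbia, chr12:55492598-55492897, minus strand: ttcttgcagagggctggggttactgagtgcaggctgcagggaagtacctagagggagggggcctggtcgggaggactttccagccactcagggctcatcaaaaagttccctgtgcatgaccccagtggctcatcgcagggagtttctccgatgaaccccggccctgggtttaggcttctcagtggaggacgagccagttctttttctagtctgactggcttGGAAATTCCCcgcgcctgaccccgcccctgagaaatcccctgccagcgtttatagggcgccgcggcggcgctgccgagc
Nfkbie, chr17:45555450-45555749, plus strand: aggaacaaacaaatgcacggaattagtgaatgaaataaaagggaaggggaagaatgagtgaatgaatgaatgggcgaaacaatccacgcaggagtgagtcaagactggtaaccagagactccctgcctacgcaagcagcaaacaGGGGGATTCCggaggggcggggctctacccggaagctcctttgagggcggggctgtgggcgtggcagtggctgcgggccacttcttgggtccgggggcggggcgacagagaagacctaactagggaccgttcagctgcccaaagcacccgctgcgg
Nfkb2, chr19:46305445-46305744, plus strand: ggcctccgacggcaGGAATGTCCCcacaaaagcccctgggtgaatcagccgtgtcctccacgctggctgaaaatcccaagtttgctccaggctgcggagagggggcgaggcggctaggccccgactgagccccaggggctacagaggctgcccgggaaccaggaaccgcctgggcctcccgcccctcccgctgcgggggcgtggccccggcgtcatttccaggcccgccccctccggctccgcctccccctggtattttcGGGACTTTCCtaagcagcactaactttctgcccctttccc

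Counting the start as base 1 and the base before it as base -1, the match of Nfkbia began at base -29, that of Nfkbie at base -106, and those of Rel at bases -92 and -91. Tnfaip3 held matches from bases -125 and -12, and the printed Nfkb2 window from bases -236 and 11. Nfkb2 had 3 windows and all held a match, and the second of its printed matches also lies in an overlapping window that is not printed. Of the 32851 windows in the table, 8.46% held a match. No consensus match was found in the Nfkbib and Rela windows or in a second Tnfaip3 window, with 47.0% GC. All printed windows were rich in G and C, from 56.7% in Tnfaip3 to 75% in Rel.

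Among the 10 members, 3 were higher by 2-fold or more in the library labelled Lig4-/-, namely Nfkb1, Rel and Tnfaip3. Nfkbie was lower by 2-fold or more, and the other 6 were within 2-fold. Of all expressed genes 21.0% passed 2-fold upward and 4.09% downward. The members' median log2 ratio was -0.26, with 4 members above 0 and 6 below, whereas 58.3% of expressed genes were above 0. The members thus lay on both sides, and their log2 ratios ran from -1.06 for Nfkbie to 1.44 for Nfkb1.

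**Figure D1:**
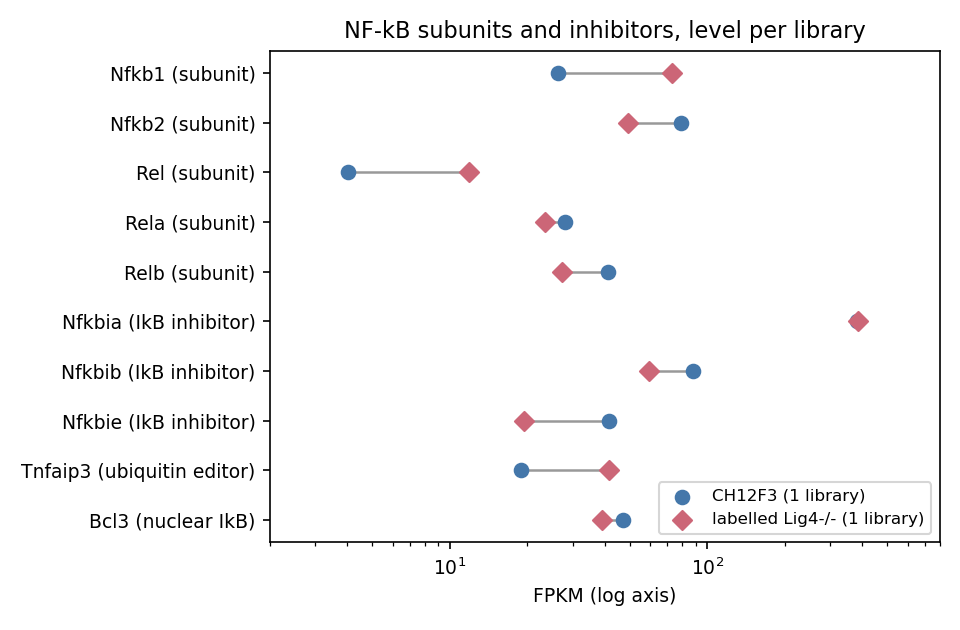
FPKM of each member on a log axis, 1 point per library (circles CH12F3, diamonds the library labelled Lig4-/-), with its role in brackets. Nfkb1, Rel and Tnfaip3 lie further right in the library labelled Lig4-/-, and Nfkb2, Rela, Relb, Nfkbib, Nfkbie and Bcl3 further left. The points of Nfkbia nearly coincide, at 382.58 and 386.16 FPKM.

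Nfkb1 (ENSMUSG00000028163, chromosome 3, 135584655 to 135691547, minus strand, by GENCODE M21, whose build is GRCm38) encodes a precursor that is processed to a DNA-binding partner of Rela and Rel. It was at 26.31 FPKM in CH12F3 and 72.87 FPKM in the library labelled Lig4-/-. This was 2.77 times the CH12F3 level, a log2 ratio of 1.44 that exceeded those of 89.5% of expressed genes. It moved Nfkb1 from the eighth place among the 10 members to the second.

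Rel (ENSMUSG00000020275, chromosome 11, 23736847 to 23770970, minus strand) encodes c-Rel, the transactivating subunit characteristic of activated lymphocytes. It was at 4.01 FPKM in CH12F3 and 11.89 FPKM in the library labelled Lig4-/-, a log2 ratio of 1.36. With a pseudocount of 5 FPKM its log2 ratio was within 2-fold, at 0.907. Rel had the lowest FPKM of the 10 members in both libraries, and it was the 1 member below the median of expressed genes, 11.1 FPKM for CH12F3 and 14.6 FPKM for the library labelled Lig4-/-.

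Rela (ENSMUSG00000024927, chromosome 19, 5637483 to 5648130, plus strand) encodes the main transactivating subunit of the canonical branch. It was at 28.07 FPKM in CH12F3 and 23.51 FPKM in the library labelled Lig4-/-, a log2 ratio of -0.25. This was within 2-fold, and its sign depends on the adjustment for GC content given below.

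Nfkb2 (ENSMUSG00000025225, chromosome 19, 46304320 to 46312385, plus strand) encodes the precursor of the noncanonical branch, which also acts as an inhibitor until it is processed. It was at 78.98 FPKM in CH12F3 and 49.01 FPKM in the library labelled Lig4-/-, with a log2 ratio of -0.68. Relb (ENSMUSG00000002983, chromosome 7, 19606217 to 19629438, minus strand), which encodes the partner of the processed Nfkb2 product, was at 41.17 and 27.20 FPKM, with a log2 ratio of -0.58. Both were lower in the library labelled Lig4-/- by less than 2-fold. Exons of Nfkb2 share 299 bases with Psd, at 0.53 and 0.57 FPKM, and 531 bases with a noncoding gene that has no value here, both on the opposite strand. The second stretch is 11.6% of the Nfkb2 exon bases. The strand setting is not known, so fragments from it cannot be told apart.

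The summed FPKM of the 5 subunits was nearly the same in both libraries, 178.5 for CH12F3 and 184.5 for the library labelled Lig4-/-, but its makeup differed. Nfkb2 held the most in CH12F3, at 44.2%, followed by Relb at 23.1%, Rela at 15.7%, Nfkb1 at 14.7% and Rel at 2.25%. In the library labelled Lig4-/- Nfkb1 led at 39.5%, followed by Nfkb2 at 26.6%, Relb at 14.7%, Rela at 12.7% and Rel at 6.45%. The canonical genes Nfkb1, Rel and Rela together summed to 58.4 FPKM in CH12F3 and to 108.3 FPKM in the library labelled Lig4-/-, while Nfkb2 and Relb together came to 120.2 and 76.2 FPKM. Within the canonical sum most of the difference was Nfkb1, at 26.31 and 72.87 FPKM. Rel was at 4.01 and 11.89 FPKM, and Rela was lower, at 28.07 and 23.51 FPKM. The ratio of the first sum to the second was 0.486 for CH12F3 and 1.42 for the library labelled Lig4-/-. The ratio of Nfkb1 to Nfkb2 alone was 0.333 and 1.49.

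Among the inhibitors, Nfkbia (ENSMUSG00000021025, chromosome 12, 55489410 to 55492647, minus strand) encodes IkB alpha, the fast feedback inhibitor of Rela-containing dimers. It was at 382.58 FPKM in CH12F3 and 386.16 FPKM in the library labelled Lig4-/-. With a log2 ratio of 0.01 it had the smallest difference of the 10 members, and it was the most abundant in both libraries. Its level exceeded those of 96.8% of expressed genes in CH12F3 and 97.2% in the other.

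Nfkbib (ENSMUSG00000030595, chromosome 7, 28758251 to 28767512, minus strand) encodes IkB beta, a slower inhibitor of the same dimers. It was at 88.26 FPKM in CH12F3 and 59.46 FPKM in the library labelled Lig4-/-, a log2 ratio of -0.56. Its exons share 42 bases with those of Sirt2 on the opposite strand, which was at 81.15 and 48.46 FPKM. The sources used here do not give the strand setting, so fragments from that stretch, 1.94% of the Nfkbib exon bases, cannot be told apart.

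Nfkbie (ENSMUSG00000023947, chromosome 17, 45555703 to 45563169, plus strand) encodes IkB epsilon, an inhibitor with a prominent role in B cells, where it restrains c-Rel and RelA. It was at 41.43 FPKM in CH12F3 and 19.35 FPKM in the library labelled Lig4-/-. The CH12F3 level was 2.14 times the other, and the log2 ratio of -1.06 lay below those of all but 3.4% of expressed genes. It was the 1 member at least 2-fold lower, but its log2 ratio was within 2-fold at -0.93 with a pseudocount of 5 FPKM and at -0.96 (-0.965) with the same total FPKM in both libraries.

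The 3 inhibitors summed to 512.3 FPKM in CH12F3 and 465.0 FPKM in the library labelled Lig4-/-. Nfkbia held 74.7% and 83.1% of these sums, Nfkbib 17.2% and 12.8%, and Nfkbie 8.09% and 4.16%. The ratio of inhibitor to subunit FPKM was 2.87 for CH12F3 and 2.52 for the library labelled Lig4-/-. Without Nfkbia and without Nfkb2, the most abundant inhibitor and the most abundant subunit by mean, the ratio was 1.30 and 0.582. As deposited the direction was the same, and the difference larger. Removal of Nfkb1, the most abundant subunit in the library labelled Lig4-/-, was not tested. With a GC curve removed, as given below, the direction of the full ratio depended on the choice of transcript. All these values are ratios of transcripts and say nothing of protein.

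Tnfaip3 (ENSMUSG00000019850, chromosome 10, 19000910 to 19015657, minus strand) encodes a ubiquitin-editing enzyme that shuts off signalling upstream of IKK. It was at 18.86 FPKM in CH12F3 and 41.58 FPKM in the library labelled Lig4-/-, a log2 ratio of 1.10. Bcl3 (ENSMUSG00000053175, chromosome 7, 19808462 to 19822770, minus strand) encodes a nuclear IkB protein that works with subunit dimers on DNA and can activate as well as repress. It was at 47.14 and 39.01 FPKM, a log2 ratio of -0.27, and shares 161 exon bases with the antisense gene Gm16175, at 1.69 and 0 FPKM. Tnfaip3 and Nfkbia, both feedback inhibitors and known targets, thus differed as deposited, with Tnfaip3 at least 2-fold higher and Nfkbia almost equal. After the adjustment for GC content given below Tnfaip3 was within 2-fold, at 0.84, with Nfkbia at 0.10. Tnfaip3 was also within 2-fold with a pseudocount of 5 FPKM, at 0.965. Bcl3 and Relb lie 179 kb apart on chromosome 7, and both had log2 ratios below 0 as deposited. With the GC adjustment Bcl3 was above 0, at 0.19, and Relb below, at -0.15.

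Transcript composition varied widely among the members and moved with their log2 ratios. GC content was read from the longest protein-coding transcript of each gene, and it ran from 42.5% in Rel to 62.6% in Bcl3, against a median of 50.2% over expressed genes. Over the 10 members, which share the same 2 libraries, Pearson's r of log2 ratio and GC content was -0.77 and Spearman's rho -0.64, and over 11404 expressed genes rho was -0.66. The 6 members below 0 had at least 55.7% GC. Of the 3 at least 2-fold higher, Rel had 42.5%, Tnfaip3 49.4% and Nfkb1 53.1%. By this transcript Nfkb1 was the exception, since Nfkbia with 52.9% had a log2 ratio of 0.01. The longest annotated transcript of Nfkb1 has 44.9% GC, as described below. In the tenth of expressed genes that holds Nfkb1 and Nfkbia by protein-coding transcript, GC contents ran from 52.1% to 54.0%. Its median log2 ratio was -0.14, the quartiles were -0.45 and 0.25, and 3.42% of its genes passed 2-fold upward. In the tenth that holds Rel the median was 1.07 and 53.5% passed 2-fold upward.

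**Figure D2:**
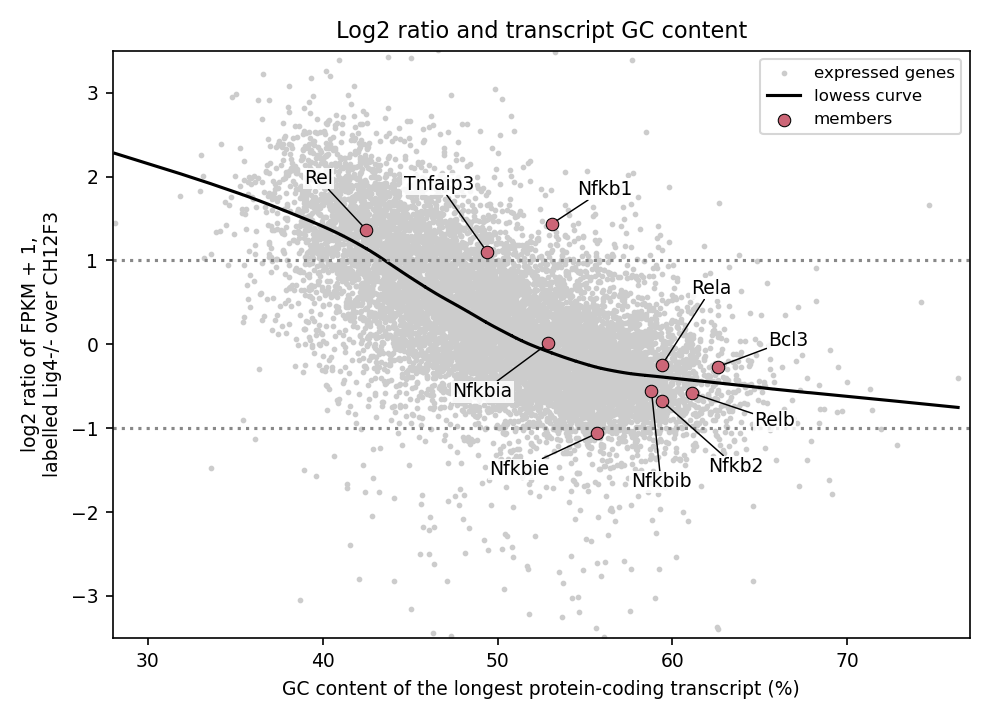
Log2 ratio of FPKM + 1 (library labelled Lig4-/- over CH12F3) against the GC content of the longest protein-coding transcript, for expressed genes (grey), with a lowess curve (black) and the 10 members (red). Dotted lines mark 2-fold, 42 genes lie beyond the vertical axis, Rel lies near the curve and Nfkb1 well above it.

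A GC-adjusted log2 ratio was obtained by subtracting a smooth curve of log2 ratio on GC content, fitted over expressed genes. After it 5.42% of expressed genes passed 2-fold upward and 5.42% downward, and of the members only Nfkb1 did, at 1.54. That value exceeded those of 98.8% of expressed genes. Tnfaip3 had 0.84 and Rel 0.22, both within 2-fold. Nfkbie remained the lowest member at -0.79, below all but 9.4% of expressed genes. The others lay between -0.29 for Nfkb2 and 0.19 for Bcl3, with Relb at -0.15, Nfkbib at -0.19, Nfkbia at 0.10 and Rela at 0.14. The median of the members was 0.12, on the other side of 0 from the unadjusted median.

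The value of Nfkb1 depends on which transcript gives the GC content. Its longest annotated transcript is a form with a retained intron and 44.9% GC, whereas its longest protein-coding transcript has 53.1%. With the longest annotated transcript the adjusted log2 ratio of Nfkb1 was 0.70, within 2-fold, and 0 members were then past 2-fold, against 5.75% of expressed genes upward and 5.98% downward. For 4 of the 10 members, Nfkb1, Relb, Nfkbie and Tnfaip3, the longest annotated transcript is not protein-coding. Among them Tnfaip3 went from 0.84 to 0.62, Relb from -0.15 to -0.26 and Nfkbie from -0.79 to -0.80. With the mean GC content over all of its annotated transcripts, 51.5%, Nfkb1 was again past 2-fold. Which transcripts the cells made cannot be read from 1 value per gene.

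The subunit makeup was recomputed with the curve removed from the values of the library labelled Lig4-/-. With the protein-coding transcripts Nfkb1 held 36.3% of the subunit sum and Nfkb2 29.9%, and Rel held 2.24%, close to its 2.25% in CH12F3. With the longest annotated transcripts Nfkb1 held 24.3%, Nfkb2 36.1% and Rel 2.91%, so that Nfkb2 led as in CH12F3. The ratio of Nfkb1, Rel and Rela to Nfkb2 and Relb was 1.13 and 0.806 under these settings, both above the 0.486 of CH12F3. The inhibitor to subunit ratio was 2.37 with the protein-coding transcripts, below the 2.87 of CH12F3, but 2.92 with the longest annotated ones.

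**Figure D3:**
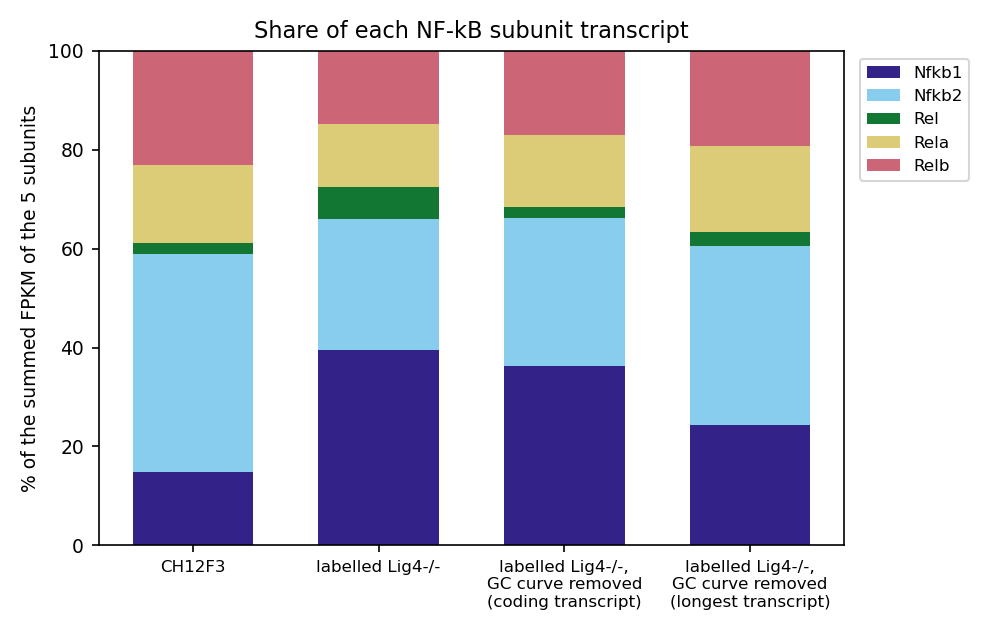
Share of each subunit gene in the summed FPKM of the 5 subunits, as a percent, for CH12F3, for the library labelled Lig4-/-, and for that library with the GC curve removed by either choice of transcript. The Nfkb1 share is 14.7% in CH12F3 and 39.5%, 36.3% and 24.3% in the other bars.

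Other genes of the pathway were described by 5 lists with 81 genes in all, 77 of them expressed. Of these 77, 19 passed 2-fold upward in the library labelled Lig4-/- and 6 downward, against 21.0% and 4.09% of all expressed genes. After GC adjustment 6 were higher and 7 lower, against 5.42% each way.

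All 9 further IkB family genes and nuclear modulators were expressed, with a median log2 ratio of 0.48. Of these, 2 passed 2-fold upward and 1 downward, against 21.0% and 4.09% of all expressed genes. The highest was Nkrf, an NF-kB repressing factor, at 0.99 FPKM in CH12F3 and 4.89 FPKM in the library labelled Lig4-/-. It was followed by Nkap at 2.41 and 6.38 FPKM. The lowest was Nfkbil1, an IkB-like gene, at 59.48 and 26.62 FPKM, a log2 ratio of -1.13. None of the list was past 2-fold after GC adjustment, against 5.42% of expressed genes each way, and the median was then -0.28. The nuclear IkB genes Nfkbiz, at 27.94 and 55.09 FPKM, and Nfkbid, at 114.10 and 65.75 FPKM, are added as relatives of Bcl3, chosen after their values were seen. They lay on opposite sides of 0, at 0.95 and -0.79 (GC-adjusted 0.77 and -0.45).

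Of the 7 IKK and IKK-related genes, 4 passed 2-fold upward and 0 downward, against 21.0% and 4.09% of all expressed genes. The median GC content of the list was 44.7%. In the tenth of expressed genes from 44.4% to 46.5% GC, 33.9% passed 2-fold upward. The list had a median log2 ratio of 1.23 and a GC-adjusted median of 0.48. Chuk, which encodes IKK alpha, the kinase of the noncanonical branch, had 2.54 FPKM in CH12F3 and 14.47 FPKM in the library labelled Lig4-/-, for a log2 ratio of 2.13 that became 0.85 when GC-adjusted. The adaptor gene Tank was the highest, at 4.73 and 33.69 FPKM (2.60, GC-adjusted 1.05). It was the 1 past 2-fold after adjustment, against 5.42% of expressed genes each way. Tbk1, at 6.29 and 18.65 FPKM, and its adaptor Azi2, at 4.70 and 12.36 FPKM, had GC-adjusted values of 0.68 and 0.14. Ikbkb, which encodes IKK beta, the kinase of the canonical branch, was the lowest at 37.61 and 35.99 FPKM, a log2 ratio of -0.06.

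Of the 14 activators upstream of IKK, 6 passed 2-fold upward and 0 downward, against 21.0% and 4.09% of all expressed genes. In the list 12 were above 0, against 58.3% of expressed genes, with a median of 0.78 and a GC-adjusted median of 0.45. Map3k7, which encodes the IKK-activating kinase TAK1, was the highest, at 3.98 and 15.37 FPKM, with a log2 ratio of 1.72. Its ubiquitin-binding partner genes Tab2, at 3.76 and 14.59 FPKM, and Tab3, at 0.46 and 2.77 FPKM, came to 1.71 and 1.37 on the log2 scale. Malt1 and Bcl10 encode signalling proteins that link the antigen receptor to IKK. Malt1 was at 10.55 and 35.72 FPKM and Bcl10 at 18.16 and 46.42 FPKM. Prkcb, a protein kinase C gene of antigen receptor signalling, was at 54.46 and 127.28 FPKM. After GC adjustment Tab2, at 1.32, and Prkcb, at 1.07, were past 2-fold upward and none downward, against 5.42% of expressed genes each way. Map3k7 had 0.94, Malt1 0.80, Bcl10 0.79 and Tab3 0.11. With the longest annotated transcripts Bcl10, at 1.26, and Map3k7, at 1.007, were past 2-fold as well, and Malt1 had 0.04. Of expressed genes 5.75% then passed 2-fold upward.

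Of the 15 ubiquitin ligase, editing and deubiquitinase genes, 14 were expressed, with a median of 0.03. Of these, 3 passed 2-fold upward and 1 downward, against 21.0% and 4.09% of all expressed genes. The ligase gene Itch, at 3.31 and 15.59 FPKM, was the highest, and with Tax1bp1, at 7.32 and 27.56 FPKM, it encodes a known partner of the Tnfaip3 product. The deubiquitinase gene Cyld was at 3.23 and 8.01 FPKM. Their GC-adjusted values were 0.76, 0.60 and 0.08. The lowest was Rnf31, the catalytic subunit of the linear ubiquitin ligase, at 28.30 and 13.24 FPKM (-1.04, GC-adjusted -0.67, or -1.04 with the longest annotated transcript). After adjustment none was higher and 1 was lower, against 5.42% of expressed genes each way. The lower gene was Btrc, a ligase subunit that recognises phosphorylated IkB, at 19.36 and 13.65 FPKM. Its log2 ratio was -0.47 before and -1.47 after.

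Of the 36 target genes, 33 were expressed, with a median of -0.07. Of these, 4 passed 2-fold upward and 4 downward, against 21.0% and 4.09% of all expressed genes. Higher were the inhibitor of apoptosis genes Xiap, at 1.24 and 8.30 FPKM, and Birc3, at 17.63 and 60.45 FPKM, the growth regulator Myc, at 36.52 and 90.71 FPKM, and lymphotoxin alpha (Lta), at 11.46 and 27.74 FPKM. Lower were the cyclin gene Ccnd2, at 50.20 and 18.27 FPKM, the adaptor Traf1, at 128.86 and 51.68 FPKM, the interferon regulatory factor Irf1, at 33.71 and 15.25 FPKM, and the survival gene Bcl2l1, at 100.32 and 47.42 FPKM. The GC-adjusted median was -0.44, with 3 genes higher and 6 lower, against 5.42% of expressed genes each way. Lta had 1.48, Myc 1.41 and Birc3 1.13, while Xiap had 0.37 and was within 2-fold. Ccnd2 had -1.94, Traf1 -1.14, Irf1 -1.01 (-0.98 with the longest annotated transcript) and Bcl2l1 -0.78, which was within 2-fold. The costimulatory genes Cd80, at 37.41 and 23.46 FPKM, and Cd40, at 342.30 and 188.00 FPKM, and the death receptor gene Fas, at 10.01 and 5.85 FPKM, were within 2-fold before and had GC-adjusted values of -1.77, -1.19 and -1.70. As deposited 16 of the known targets were above 0 and 17 below, so they lay on both sides, as the members did. After GC adjustment the median of the targets was below 0, at -0.44, and that of the members above 0, at 0.12.

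**Figure D4:**
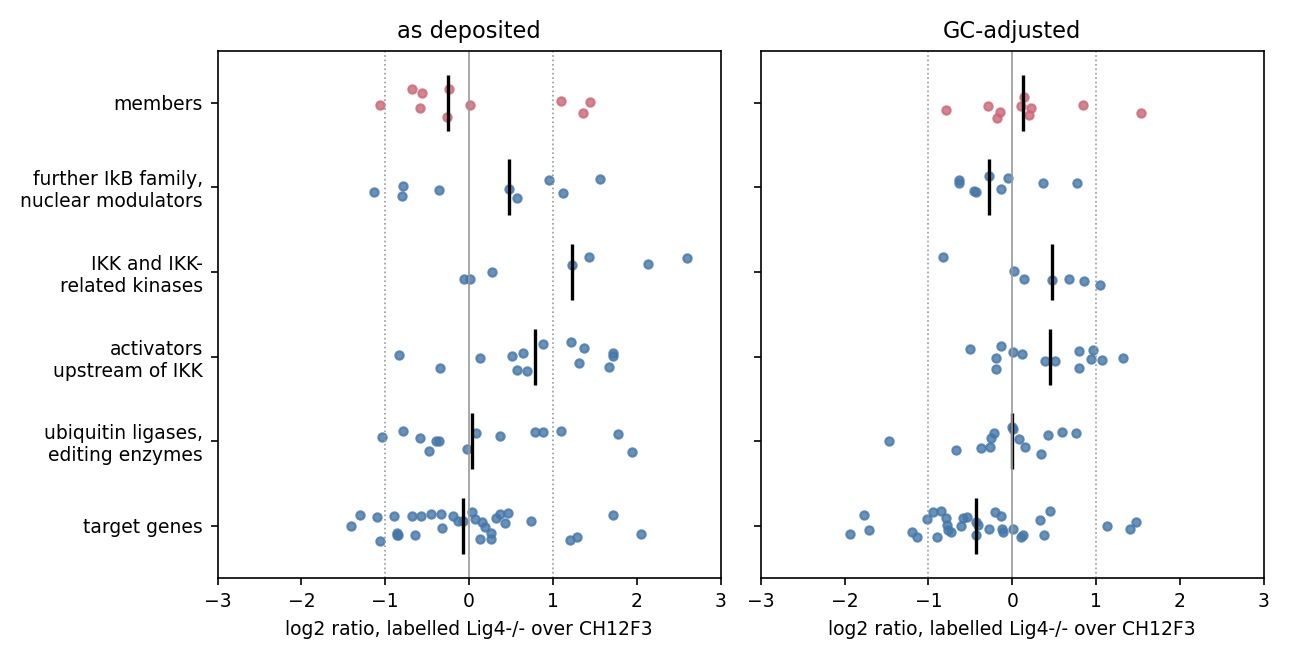
Log2 ratio of each expressed gene (points) in the members and in the 5 related lists, as deposited (left) and GC-adjusted (right), with the median of each row as a black bar and 2-fold as dotted lines. The median of the IKK list is 1.23 on the left and 0.48 on the right, and the members hold 1 gene beyond 2-fold on the right, Nfkb1.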

How the data were processed

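Value columns were assigned by the cell line names in their headers. The deposited values are FPKM as the authors computed them, for 53873 features, of which 51912 carry mouse Ensembl identifiers and 1961 are assembled loci, not used here. The submitters' processing notes name CASAVA, TopHat and the build GRCh38, which is human, so the build behind the values is uncertain, and no deposited coordinate was used. The sources used here do not name the FPKM program.

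Symbols, positions and transcript sequences came from GENCODE M21 (GRCm38) by identifier (51633 matched). Where identifiers shared a symbol, the highest was kept. The pseudocount was 1 FPKM. The GC curve was a lowess fit (statsmodels 0.14.6, fraction 0.3) over expressed genes, on the longest protein-coding transcript, a choice made after the data were seen; genes without one used their longest transcript.

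Depth is unknown: at the best step 24.7% and 23.9% of low values of short single-transcript genes lay within 0.1 of whole multiples. No interval was computed.

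Members and lists were chosen with earlier results of these data known. All members are named, and of each list the genes at least 2-fold apart, the highest and the lowest. A gene that this rule takes in is not reported here. Others are examples chosen after their values were seen. Alternatives were other pseudocounts, scalings, expression filters, thresholds and GC adjustments.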

Additional observations from a re-analysis of the deposited data

How the results depend on the processing

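The count of members at least 2-fold higher was 3, and the count lower was 1, against 21.0% and 4.09% of all expressed genes. With the GC curve removed these shares were 5.42% each way by protein-coding transcript, and 5.75% and 5.98% by longest annotated transcript. For the other settings below the share over all expressed genes was not computed. The counts of members and list genes there thus cannot be set against it. A pseudocount of 5 FPKM gave 1 and 0, a 4-fold threshold gave 0 and 0, and a 1.5-fold threshold gave 3 and 2. The same total FPKM in both libraries gave 3 and 0 (Nfkbie at -0.965), and the overall median set to 0 gave 2 and 1 (Tnfaip3 at 0.93). Subtracting the GC curve of the longest annotated transcript, or a linear fit on GC content and length, gave 0 and 0, while the longest protein-coding transcript or the mean GC content over transcripts gave 1 and 0. The members' median of -0.26 turned to 0.12 with the protein-coding transcript, 0.14 with the longest annotated one (0.135), 0.094 with the mean over transcripts and 0.18 with the linear fit. In the same order Rela turned to 0.14, 0.14 (0.137), 0.11 (0.115) and 0.28, and Bcl3 to 0.19, 0.18, 0.074 and 0.58 (0.585). Nfkbia turned to -0.16 with the overall median set to 0 and to -0.043 with upper quartile scaling. Of the 77 expressed list genes, 19 were higher and 6 lower. The higher count was 3 with a 4-fold threshold, and 6, 8, 9 and 8 under the GC adjustments in the order above. The lower count was 17 with a 1.5-fold threshold, 0 with 4-fold and 11 with the median set to 0. The inhibitor to subunit ratio, 2.87 in CH12F3 and 2.52 in the other library, was 3.24 and 2.96 with Tnfaip3 and Bcl3 as inhibitors and 1.30 and 0.582 without the most abundant member of each class. With the GC curve of the protein-coding transcripts removed, chosen after seeing the data, it was 2.37 in the library labelled Lig4-/-, but 2.92 with the longest annotated transcripts, which turns the direction. No paired analysis was possible because each group has 1 library. Depth is unknown, so the counting error of Rel, the lowest member, cannot be given.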
